A study of Homo sapiens with 12 samples.

Results

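The histone cluster genes encode the linker histone H1 and the core histones H2A, H2B, H3 and H4. They were taken as every gene whose RefSeq symbol, matched by Entrez gene number, begins with H2AC, H2BC, H3C or H4C followed by a number, or is H1- followed by a digit. Of these, 71 genes are described, of which 8 encode H1, 17 H2A, 18 H2B, 13 H3 and 15 H4. Of the 71 genes, 55 lie on chromosome 6, 13 on chromosome 1, 2 on chromosome 12 and 1 on chromosome 3. Expression values were present for 69 of them, among 23922 genes in all, and H2AC1 and H4C2 were not analysed here. The filter on low counts left 21 of the 69 for testing, among 18101 genes.

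RNA was sequenced from cells of H9, an established line of human embryonic stem cells, during their differentiation toward hepatocytes. The 12 libraries form 6 groups of 2, namely cells given 30 nM T4 (thyroxine), 30 nM T3 (triiodothyronine, the more active thyroid hormone) or 0.1% DMSO as the control, each at day 19 and at day 7. Cells of day 19 are labelled hepatocytes and cells of day 7 hepatoblasts. The labels give neither the vehicle of the hormone-treated cells nor the start of treatment, and do not say that replicates were separate cultures. The p-values therefore rest on a spread between libraries that may be technical only. Total expected counts were 18363549 to 19306181 per library, and the histone genes took 0.0029% to 0.0224% of them. The counting error of each value follows from these totals and is large for most of the family. The method by which messenger RNA was selected is not given in the sources used here.

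Histones package DNA into nucleosomes, and most of these genes are transcribed in S phase, when newly copied DNA needs new histones. Their main transcripts carry no poly(A) tail. They end just after a short stem-loop that is bound by the stem-loop binding protein SLBP and cut with the help of U7 snRNP. Some of the genes also give polyadenylated transcripts, which use a site further downstream and have been described in differentiating cells. A library made from poly(A) RNA therefore sees only part of the family, and low values here are no measure of histone protein.

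The stem-loop is shown because most transcripts of these genes end just after it in place of a poly(A) tail. The reference transcripts (GENCODE, GRCh38) were searched for a stem of GG and 4 further bases, a loop of TT and 2 further bases, and the reverse complement of the stem. It occurred in a transcript of 29 of the 71 genes, against 0.170% of all 206694 transcripts. Many reference transcripts of histone genes end at the stop codon, so a gene without a match may still have the element. Capitals mark the stem in the 4 forms found, written as DNA.
Form of 17 genes, H2AC25, H2AC18, H2AC6 and H2BC21 among them: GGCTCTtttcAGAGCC
Form of 4 genes, H2BC4 and H2BC5 among them: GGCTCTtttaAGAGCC
Form of 5 H4 genes, H4C11 among them: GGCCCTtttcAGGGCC
Form of 3 H4 genes, H4C14 among them: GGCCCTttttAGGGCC
Transcripts that carried the stem-loop and ran on past it, as a polyadenylated form does, were annotated for several genes. The bases after the stem-loop were 390 for H2AC25, 1729 for H2BC21, 1917 for H2BC26, 1114 or 1128 for H2AC6 and 1640 for H2BC9. The RefSeq transcripts counted for H2AC25 and H2BC26 were shorter, at 496 and 452 bases.

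The abundance of the family was very uneven. H2AC25 had the highest level, with a mean of 34.0 FPKM over the 12 libraries, where FPKM is fragments scaled to the length of the transcript and to the mapped fragments of the library. It was followed by H2BC12 at 25.9, H1-2 at 17.9, H2AC6 at 17.7, and H2AC18 and H2AC19 at 17.02 each. In all, 15 genes averaged at least 1 FPKM, 6 at least 10 FPKM, and 25 under 0.1 FPKM. None of the 13 H3 genes averaged 1 FPKM. The 48 genes under the filter reached at most 1.24 FPKM in any library (H4C8, an H4 gene, in the first T3 library of day 19). Summed, these 48 genes had between 7.51 and 9.33 FPKM in every group.

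Some reads could not be assigned to a gene with certainty. H2AC18 and H2AC19 share all 549 bases of the shorter transcript and had equal values in every library, because the counting divided their reads equally. They are described together as H2AC18/H2AC19, each value being that of either gene, and count as 2 genes wherever genes are counted. H3C14 and H3C15, and H4C14 and H4C15, were divided in the same way. H4C11 and H4C12 share a stretch of 312 bases, and reads passed between them, as described below. Of the genes tested, H2AC19, H2BC12, H2BC5, H3C4 and H4C15 overlap another annotated gene, and the strand used in counting is not given.

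**Figure D1:**
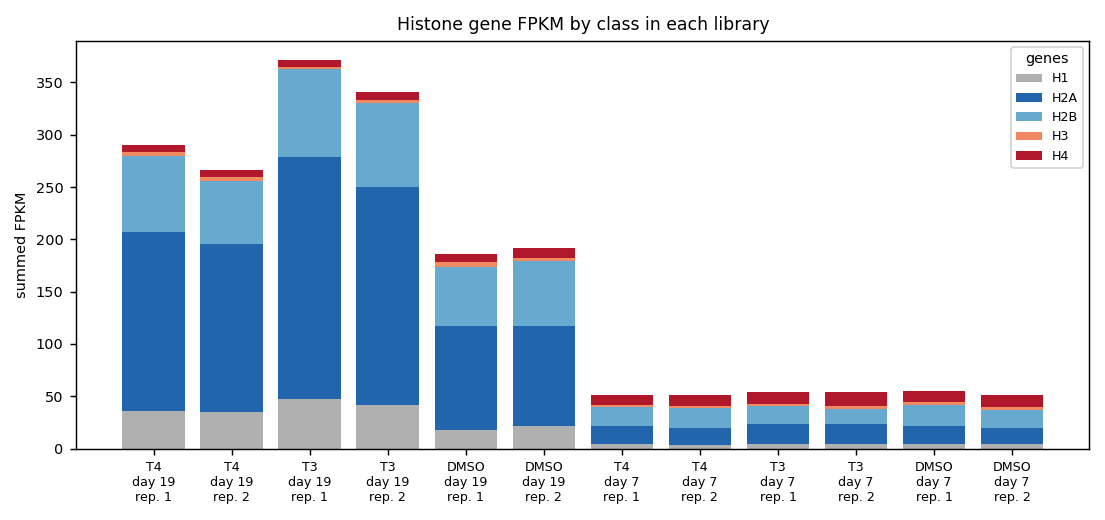
Summed FPKM of the histone genes (y axis) in each of the 12 libraries (x axis), stacked by class. The bars of day 19 are taller than those of day 7, in this unit mainly through H2A.

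The composition of the family differed between the days. H2A genes held 50.1% to 62.3% of the summed histone FPKM in the 6 libraries of day 19 and 30.1% to 36.6% in the 6 libraries of day 7. H1 genes summed to 35.3 FPKM with T4, 44.7 FPKM with T3 and 19.6 FPKM with DMSO at day 19, and at day 7 to 4.02 FPKM with T4, 4.33 FPKM with T3 and 4.29 FPKM with DMSO. H2A genes summed to 166 FPKM with T4, 220 FPKM with T3 and 97.6 FPKM with DMSO at day 19, and at day 7 to 17.02 FPKM with T4, 19.1 FPKM with T3 and 16.3 FPKM with DMSO (means of 2 libraries). H2B genes summed to 66.8 FPKM with T4, 81.8 FPKM with T3 and 59.3 FPKM with DMSO at day 19, and at day 7 to 18.4 FPKM with T4, 16.2 FPKM with T3 and 18.9 FPKM with DMSO. H3 and H4 genes stayed low on both days, at 2.06 to 3.70 FPKM and 6.61 to 11.6 FPKM per group. All histone genes together had 5.14 times the CPM (counts scaled to library size by TMM) at day 19 of that at day 7 with DMSO, 8.70 times with T3 and 6.78 times with T4. In FPKM the ratios were smaller, at 3.55 with DMSO, 6.63 with T3 and 5.40 with T4. For H3 genes the CPM ratio was 2.12 with DMSO, 1.85 with T3 and 2.23 with T4, and for H4 genes 1.06, 0.76 and 0.79. In CPM, H2A and H2B genes summed to 56.9 and 58.7 with DMSO at day 19, and to 6.95 and 12.7 at day 7. With T3 at day 19 they summed to 119.55 and 79.45 CPM, and with T4 to 87.6 and 63.7 CPM. The lead of H2A over H2B with DMSO at day 19 thus held in FPKM only. These sums are descriptions with no test, and the few most abundant genes make up most of each.

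The first comparison asks how the family differed between day 19 and day 7 within each treatment. With DMSO, 12 of the 21 tested genes were higher at day 19 and 1 was lower, where 37.6% of all tested genes were called higher and 34.9% lower (72.4% in either direction). Scaled to total counts in place of TMM, 12 were higher and 4 lower with DMSO, a scaling under which the median of all genes was -0.40 in DMSO, -0.35 in T3 and -0.28 in T4 for day 19 against day 7, and 0.13 for T4 against DMSO at day 19. With T3, 12 were higher and 2 lower, against 35.2% higher and 37.9% lower of all genes (73.1% in either direction). With T4, 12 were higher and 1 lower, against 35.5% and 36.4% (71.9% in either direction). Calls are at an adjusted p of at most 0.05 in edgeR's quasi-likelihood test. The same 12 genes were higher in all 3 treatments: H1-2, H2AC6, H2AC18, H2AC19, H2AC25, H2BC4, H2BC5, H2BC8, H2BC12, H2BC21, H2BC26 and H3C4. The call of H2BC8 was lost in DMSO without the first DMSO library of day 7 (adjusted p = 0.0604), and in T4 those of H2BC8 and H2BC4 without the first T4 library of day 19 (adjusted p = 0.0691 and 0.0529). A gene that is low at day 7 could pass the filter through its level at day 19, so these counts describe the genes that passed and not the family. In bulk RNA, a different number of cells of a type and a different amount of RNA per cell cannot be told apart.

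Of the H2A genes, H2AC18/H2AC19 had the largest rise that did not rest on a group at 0. Each gene had 18.6 and 17.99 FPKM in the DMSO libraries of day 19 and 1.77 and 1.38 FPKM in those of day 7, and the log2 fold change was 3.95 (SE 0.168, adjusted p = 2.74e-11). H2AC25, which lies on chromosome 1 beside H2BC26, had 28.6 and 29.3 FPKM in DMSO at day 19 and 5.01 and 3.30 FPKM at day 7 (log2 fold change 3.21, SE 0.199). H2AC6, an H2A gene of chromosome 6, had 31.6 and 28.4 FPKM at day 19 and 4.19 and 5.22 FPKM at day 7 (log2 fold change 3.07, SE 0.152). For all of these genes the libraries of day 19 were far above those of day 7.

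Of the linker histones, H1-2, a replication-dependent H1 gene, had 17.5 and 20.97 FPKM in DMSO at day 19 and 2.92 FPKM in both libraries of day 7 (log2 fold change 3.12, SE 0.162, adjusted p = 2.53e-10). Its libraries of day 19 lay well above those of day 7. H1-4, another replication-dependent H1 gene, had 0.14 and 0.07 FPKM in DMSO at day 19 and 0.43 and 0.50 FPKM at day 7, on 3 and 13 counts (log2 fold change -1.71, SE 0.830, adjusted p = 0.0776), and did not pass the test.

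Of the H2B genes, H2BC12 had the highest level, 35.6 and 38.6 FPKM in DMSO at day 19 and 12.8 and 10.2 FPKM at day 7 (log2 fold change 2.07, SE 0.114). H2BC21 had 3.81 and 4.23 FPKM at day 19 and 0.55 and 0.53 FPKM at day 7 (log2 fold change 3.30, SE 0.178). H2BC5 had 8.78 and 9.38 FPKM at day 19 and 1.67 and 1.97 FPKM at day 7 (log2 fold change 2.60, SE 0.172). Each of these genes was higher in both DMSO libraries of day 19 than in those of day 7. Some H2B genes had transcripts of different length in the files. The transcript of 863 bases held 95.3% to 100% of the counts of H2BC12, and that of 824 bases held 85.7% to 100% of those of H2BC5, over the 12 libraries. The reference transcript that matches the longer form of H2BC5 had no stem-loop match, and the shorter had one.

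Of the less abundant genes, H2BC26 had 0 counts in both DMSO libraries of day 7 and 21 counts at day 19, so it was at least 8.82-fold higher at day 19 against a floor of 3 counts over the group. H3C4, the only H3 gene tested, had 0 counts at day 7 and 33 counts at day 19 in DMSO, at least 13.9-fold higher against the same floor. H2BC9 fell. H2BC9 had 1.05 and 0.53 FPKM in DMSO at day 19 and 3.57 and 2.61 FPKM at day 7 (log2 fold change -1.56, SE 0.488, adjusted p = 0.0102). That call was lost without the first DMSO library of day 7 (adjusted p = 0.0741), without the second DMSO library of day 19 (adjusted p = 0.0983) and in DESeq2 (adjusted p = 0.0595). H2BC9 was also lower at day 19 with T3 (-1.98), and its value with T4 was -1.07 (adjusted p = 0.0577). Of the 4 H4 genes tested, H4C14/H4C15 had log2 fold changes of 0.61 in DMSO with an interval of -0.27 to 1.49.

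**Figure D2:**
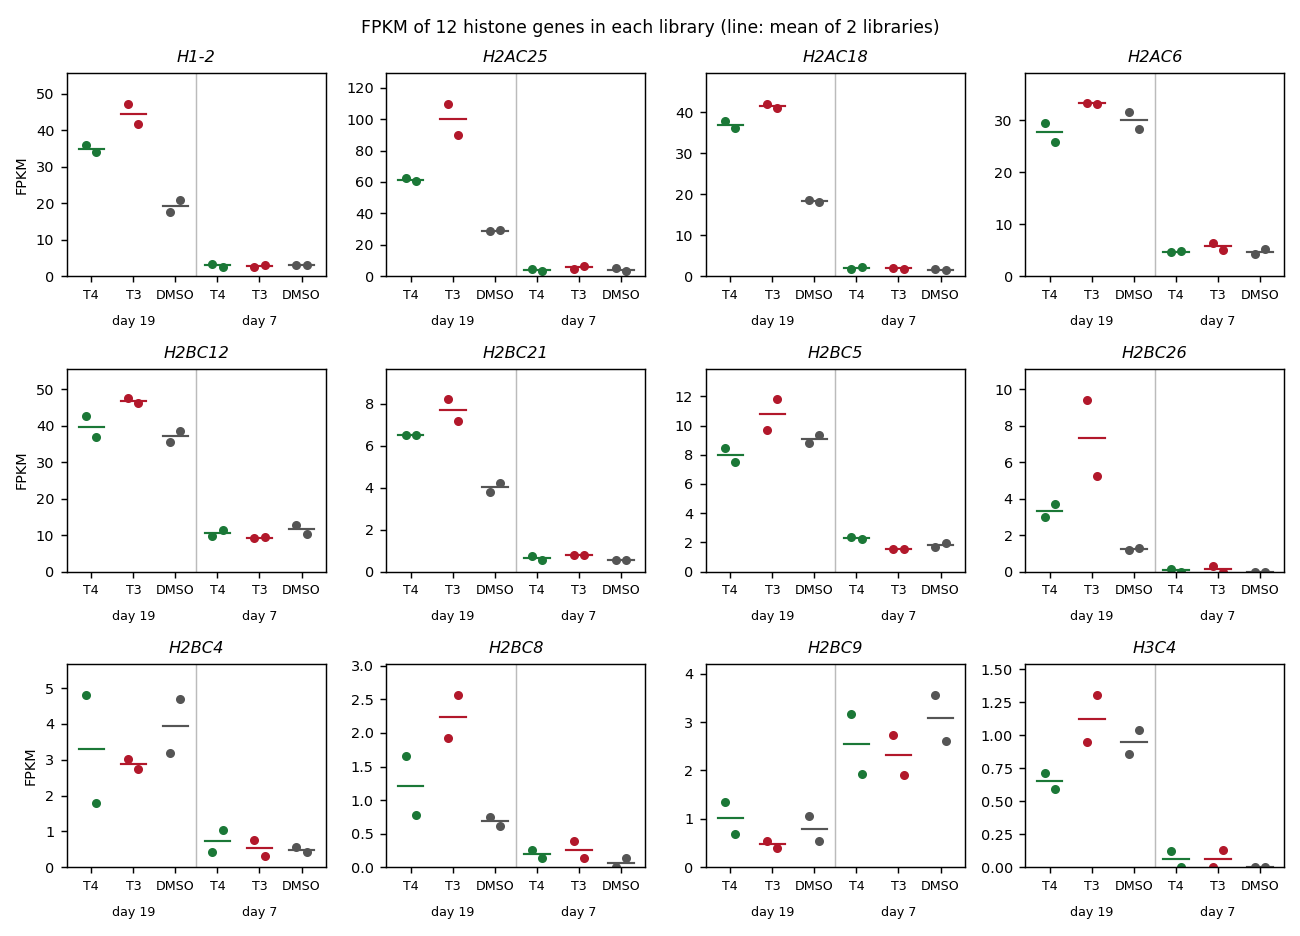
FPKM (y axis, from 0) of 12 histone genes in each library, with the T4, T3 and DMSO groups of day 19 on the left of each panel and those of day 7 on the right. Points are libraries and lines are means of 2. Most genes are near their lowest level at day 7, and H1-2, H2AC25, H2AC18, H2BC21 and H2BC26 are higher with T3 and T4 than with DMSO at day 19, whereas H2BC9 is highest at day 7.

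The second comparison asks which histone genes differed with hormone at day 19. With T3, 8 of the 21 genes were higher than with DMSO and 1 was lower, where 25.1% of all tested genes were called higher and 27.3% lower (52.3% in either direction). With T4, 5 were higher and 1 was lower, where 21% were called higher and 21.9% lower (42.8% in either direction). The T3 and T4 comparisons share the DMSO libraries, so their values are set side by side and are not independent. Of the 8 genes higher with T3, 3 encode H2A, 4 H2B and 1 H1. Of the 8 tested genes of chromosome 1, 5 were higher with T3 and 4 with T4, and of the 13 of chromosome 6, 3 were higher with T3 and 1 with T4. The chromosome 1 genes higher with each hormone include both H2AC18 and H2AC19, whose reads were divided equally. These counts are descriptions, and a difference between the chromosomes was not tested.

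H2AC25 had the largest rise among the well measured genes. It had 110 and 90.0 FPKM with T3 and 28.6 and 29.3 FPKM with DMSO at day 19. The log2 fold change was 1.71 (SE 0.130, adjusted p = 4.45e-08), 3.27-fold. With T4 it had 62.5 and 60.6 FPKM, and the log2 fold change was 0.96 (SE 0.134, adjusted p = 3.92e-05). The libraries of each group stayed apart from those of the others, in the order T3, T4, DMSO from high to low.

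H2BC26, whose start lies 230 bases from that of H2AC25 on the other strand, had 9.41 and 5.22 FPKM with T3 and 1.21 and 1.31 FPKM with DMSO at day 19 (log2 fold change 2.43, SE 0.433, adjusted p = 3.18e-04). With T4 it had 2.99 and 3.70 FPKM, and the log2 fold change of 1.24 did not pass the test (SE 0.475, adjusted p = 0.0512). With RLE or total count scaling it did (adjusted p = 0.0487 and 0.0284). The libraries of the 3 groups did not overlap, but H2BC26 rested on 116 expected counts with T3 and 21 with DMSO.

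H1-2 had 47.2 and 41.6 FPKM with T3 and 17.5 and 20.97 FPKM with DMSO at day 19 (log2 fold change 1.13, SE 0.114, adjusted p = 8.93e-07). With T4 it had 35.8 and 34.0 FPKM (log2 fold change 0.73, SE 0.115). H1-2 was thus higher with either hormone, and no library of a hormone group reached down to a DMSO library.

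H2AC18/H2AC19 had 41.9 and 41.1 FPKM with T3 and 18.6 and 17.99 FPKM with DMSO at day 19 (log2 fold change 1.10, SE 0.104, adjusted p = 4.48e-07). With T4 each had 37.7 and 36.1 FPKM (log2 fold change 0.88, SE 0.105). H2BC21, an H2B gene of the chromosome 1 cluster, had 8.21 and 7.19 FPKM with T3 and 3.81 and 4.23 FPKM with DMSO (log2 fold change 0.86, SE 0.122). With T4 it had 6.49 and 6.50 FPKM (log2 fold change 0.56, SE 0.124). H2BC8 was higher with T3 at 1.92 and 2.56 FPKM, against 0.75 and 0.62 FPKM with DMSO, on 35 and 11 expected counts (log2 fold change 1.61, SE 0.531, adjusted p = 0.0196). The H2BC8 call was lost without the first or second DMSO library of day 19 (adjusted p = 0.0675 and 0.102), without the second T3 library (adjusted p = 0.108) and in DESeq2 (adjusted p = 0.146).

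Some abundant genes did not pass the test with hormone or changed little. H2AC6 had 33.3 and 33.2 FPKM with T3 and 31.6 and 28.4 FPKM with DMSO, a log2 fold change of 0.07 with a 95% interval of -0.18 to 0.32. With T4, H2AC6 had 29.5 and 25.8 FPKM, a log2 fold change of -0.25 with an interval of -0.50 to 0.01. H2BC12 had 47.5 and 46.2 FPKM with T3 and 35.6 and 38.6 FPKM with DMSO, a small rise (log2 fold change 0.28, SE 0.0969, adjusted p = 0.0251). That call was lost without the first T3 library of day 19 (adjusted p = 0.114) or the first DMSO library of day 19 (adjusted p = 0.106). With T4, H2BC12 had 42.5 and 36.8 FPKM and a log2 fold change of -0.01 with an interval of -0.22 to 0.20. The log2 fold changes of H2BC5 and H2BC4 with T3 were 0.21 and -0.53, and neither passed the test. H2AC6 and H2AC25 therefore had like levels with DMSO and unlike levels with T3 at day 19.

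**Figure D3:**
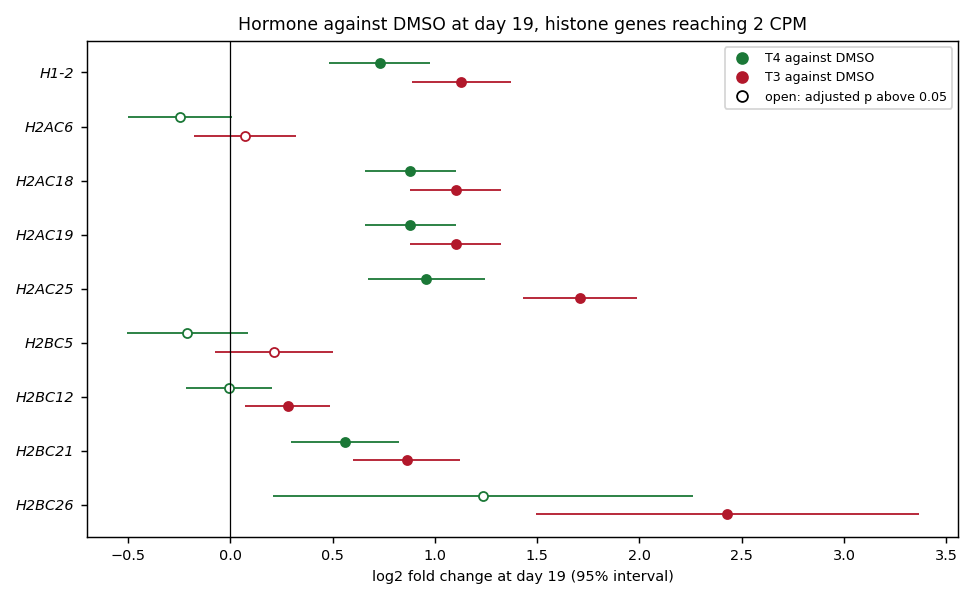
Log2 fold change of T4 and T3 against DMSO at day 19 (x axis) for the 9 histone genes that reached a mean of 2 CPM in a group, with 95% intervals computed from the F statistic of the edgeR test. Filled points passed the test at an adjusted p of at most 0.05. H1-2, H2AC18, H2AC19, H2AC25 and H2BC21 lie right of 0 in both comparisons, and H2AC6 and H2BC5 have open points in both.

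The marker genes of cell types also differed between the groups. At day 19 those of hepatocytes, the labelled cell type, were lower with either hormone, where several histone genes were higher. The 10 hepatocyte genes (AFP, ALB, TTR, APOA1, APOB, SERPINA1, FGB, AHSG, TF and HNF4A) summed to 7409 to 8317 CPM with T4, 2880 to 3866 CPM with T3 and 64249 to 67972 CPM with DMSO at day 19. The 7 pluripotency genes summed to 194 to 199 CPM with T4, 195 to 214 CPM with T3 and 144 to 153 CPM with DMSO. The 8 mesenchymal genes summed to 3516 to 3914 CPM with T4, 2587 to 3423 CPM with T3 and 6476 to 6715 CPM with DMSO, and the 6 intestinal genes to 756 to 979 CPM with T4, 386 to 467 CPM with T3 and 1978 to 2140 CPM with DMSO. The 5 endothelial genes summed to 102 to 124 CPM with T4, 116 to 118 CPM with T3 and 95.3 to 108 CPM with DMSO. Among them 1 was called higher and 3 lower with T3 (25.1% and 27.3% of all genes). Also, 1 was higher and 2 lower with T4 (21% and 21.9%), so the sums do not stand for each gene. Of the 8 mesenchymal genes, 2 were called higher and 6 lower with T3, and 2 higher and 5 lower with T4. Of the 7 pluripotency genes, 3 were called higher and 0 lower with either hormone, beside the same shares of all genes. At day 7 the pluripotency genes summed to 2390 to 2417 CPM with T4, 2867 to 2896 CPM with T3 and 1593 to 1615 CPM with DMSO, and the hepatocyte genes to 4037 to 4109 CPM with T4, 3802 to 3921 CPM with T3 and 5156 to 5185 CPM with DMSO. Also at day 7, the mesenchymal genes summed to 361 to 370 CPM with T4, 414 to 438 CPM with T3 and 378 to 386 CPM with DMSO, and the intestinal genes to 54.2 to 57.3 CPM with T4, 51.8 to 58.7 CPM with T3 and 65.7 to 66.0 CPM with DMSO. The endothelial genes summed to 43.4 to 44.9 CPM with T4, 42.2 to 44.5 CPM with T3 and 75.3 to 75.4 CPM with DMSO. The sums of all these lists but the pluripotency genes were thus higher at day 19 than at day 7 in DMSO, as most of the tested histone genes were. By gene, 3 of the 5 endothelial genes were called higher and 2 lower (37.6% and 34.9% of all genes). No gene of the hepatocyte list was at 0. The part of these cell type differences in the histone results was not tested.

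The promoters of 5 genes are shown because they cover the gene with the largest hormone rise among the well measured genes (H2AC25), a linker gene and the identical pair that also rose (H1-2 and H2AC18), and the genes that fell (H2BC9 with time and H4C11). Each is the 250 bases before the RefSeq start (GRCh38.p14), 5′ to 3′ on the strand of the gene. They lie at chr1:228457874-228458123, minus strand for H2AC25; chr6:26056471-26056720, minus strand for H1-2; chr1:149842751-149843000, minus strand for H2AC18; chr6:26251364-26251613, plus strand for H2BC9; and chr6:27823842-27824091, plus strand for H4C11. Capitals mark CCAAT (the CCAAT box), TATAAA (the TATA box), ATTTGCA (the octamer core, bound by OCT1) and AAACACA (the H1 box), searched on both strands, so that ATTGG is CCAAT read on the other strand.
H2AC25: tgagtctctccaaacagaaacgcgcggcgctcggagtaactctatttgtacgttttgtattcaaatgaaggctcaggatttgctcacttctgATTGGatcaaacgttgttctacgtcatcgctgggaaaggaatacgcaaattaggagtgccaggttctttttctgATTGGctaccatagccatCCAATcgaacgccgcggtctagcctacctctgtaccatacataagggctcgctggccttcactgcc
H1-2: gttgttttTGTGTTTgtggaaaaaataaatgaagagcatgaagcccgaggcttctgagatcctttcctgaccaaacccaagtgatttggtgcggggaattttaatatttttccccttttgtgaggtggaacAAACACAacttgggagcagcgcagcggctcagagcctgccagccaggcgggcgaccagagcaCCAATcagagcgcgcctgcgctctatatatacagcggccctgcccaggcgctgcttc
H2AC18: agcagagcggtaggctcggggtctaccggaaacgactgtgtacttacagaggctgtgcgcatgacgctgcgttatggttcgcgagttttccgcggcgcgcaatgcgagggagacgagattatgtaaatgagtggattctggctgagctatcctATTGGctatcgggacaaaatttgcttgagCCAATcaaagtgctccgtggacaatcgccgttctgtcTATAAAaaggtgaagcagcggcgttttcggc
H2BC9: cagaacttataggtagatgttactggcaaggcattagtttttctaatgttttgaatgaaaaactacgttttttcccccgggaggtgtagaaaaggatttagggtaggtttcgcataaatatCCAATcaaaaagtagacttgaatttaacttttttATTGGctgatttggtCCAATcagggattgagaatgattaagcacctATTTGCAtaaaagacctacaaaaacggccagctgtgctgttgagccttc
H4C11: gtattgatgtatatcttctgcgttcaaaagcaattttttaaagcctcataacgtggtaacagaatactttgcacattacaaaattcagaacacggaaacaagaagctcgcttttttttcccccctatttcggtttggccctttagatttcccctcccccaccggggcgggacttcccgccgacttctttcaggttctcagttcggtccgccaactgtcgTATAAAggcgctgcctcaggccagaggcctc
The CCAAT box lay at -66, -84 and -158 in H2AC25, counted from the start, and at -57 in H1-2. H1-2 held the H1 box at -119 and -242. The TATA box stood at -31 in H2AC18 and H4C11, and the octamer core at -49 in H2BC9.

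Across the family, windows from 250 bases before to 50 after the start were present for 66 genes (71 windows, since 5 genes have 2). CCAAT occurred in 84.5% of these windows and in 34.6% of all 35116 promoters, and in all 16 H2A, 20 H2B and 13 H3 windows but 3 of 13 H4 windows. TATAAA occurred in 63.4% of histone windows and 11.5% of all promoters, and ATTTGCA in 39.4% and 4.20%. ATTTGCA was found in 11 of 16 H2A and 15 of 20 H2B windows, and AAACACA in 7 of 9 H1 windows. AGGTCA, the half-site bound by many nuclear receptors, thyroid hormone receptors included, occurred in 12.7% of histone windows and 13.8% of all promoters, and in none of the windows of H2AC25, H2BC26, H1-2, H2AC18, H2AC19 and H2BC21. It was likewise absent from all other tested genes but H2AC11, those not higher with hormone included. H2AC25 and H2BC26 also held neither ATTTGCA nor TATAAA, whereas H2AC6, H2BC21 and H2BC12 held both. These matches are descriptions of the letters in these windows, and the windows of neighbouring pairs such as H2AC25 and H2BC26 overlap.

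T4 was compared with T3 at the same nominal dose of 30 nM. T4 differs from T3 by an added iodine on the outer ring. At day 19, T4 gave lower levels than T3 for 4 of the 21 genes and higher levels for 0 in edgeR (1 lower and 0 higher in DESeq2, 10 in either direction at an unadjusted p under 0.05), where 8.31% of all genes were called lower and 7.42% higher (15.7% in either direction). H2AC25 had 62.5 and 60.6 FPKM with T4 and 110 and 90.0 FPKM with T3 (log2 fold change -0.75, SE 0.121, adjusted p = 7.75e-04). H2BC26 (-1.19), H2BC5 (-0.42) and H1-2 (-0.40) were the others, with adjusted p of 0.0209 to 0.0481. Of these calls, that of H2AC25 held whichever library was left out, and was lost in limma on log2(FPKM + 0.1) (-0.69, adjusted p = 0.0576). Without the first T3 library of day 19, and likewise without the second T4 library, H2AC25 was the only gene called. The 95% interval of the difference was -0.43 to -0.01 for H2AC18/H2AC19 and -0.55 to -0.05 for H2BC21, and neither passed the adjusted test.

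At day 7 no histone gene passed the test in edgeR. With T3 against DMSO, 0 of the 21 genes were called by edgeR and 0 by DESeq2, where 9.43% of all genes were called higher and 6.54% lower (16% in either direction), and 2 had an unadjusted p under 0.05. For H2BC21 the log2 difference was 0.63, with an SE of 0.235 and an adjusted p of 0.102. The other was H4C12, whose adjusted p of 0.100 was 0.0273 without the first T3 library. With T4, 0 were called by edgeR and 0 by DESeq2, 1 (H4C12) had an unadjusted p under 0.05, and 6.42% of all genes were called (3.9% higher and 2.52% lower). Between T4 and T3 at day 7, 0 genes were called by edgeR and 0 by DESeq2, 1 had an unadjusted p under 0.05, and 0.365% of all genes were called (0.0387% higher and 0.326% lower). H2AC25 had 4.76 and 3.30 FPKM with T4, 4.75 and 6.57 FPKM with T3 and 5.01 and 3.30 FPKM with DMSO at day 7, and the 3 groups overlapped.

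The hormone effect was then compared between the days. For T3, the effect at day 19 minus that at day 7 passed the test for 4 of the 21 genes, 3 of them higher at day 19 and 1 lower, where 17.1% of all genes were higher and 20.9% lower (38% in either direction). The differences on the log2 scale were 1.22 for H2AC25 (SE 0.308, adjusted p = 0.00573), 1.14 for H1-2 (SE 0.256, adjusted p = 0.00258) and 0.56 for H2BC12 (SE 0.169, adjusted p = 0.0165). The lower gene was H4C11. With the identical copies H2AC18 and H2AC19 summed, their difference also passed (0.81, adjusted p = 0.00838), although neither gene passed alone. For T4, 1 of 21 passed and was higher, H2AC25 (0.95, adjusted p = 0.0394), where 12.4% of all genes were higher (27.7% in either direction). The value of H1-2 for T4 was 0.70, with an adjusted p of 0.0541.

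H4C11 had a pattern of its own that involves H4C12. H4C11 had 0 and 0.97 FPKM with T4, 0 and 0 FPKM with T3 and 2.71 and 1.25 FPKM with DMSO at day 19, and at day 7 it had 3.39 and 1.93 FPKM with T4, 5.81 and 4.52 FPKM with T3 and 5.68 and 5.52 FPKM with DMSO. A floor of 3 counts over the group does not cover reads passed to H4C12. H4C12 had 13 expected counts with T3 and 8.18 with DMSO at day 19. Against that floor, H4C11, with 0 counts with T3 and 25 with DMSO at day 19, had at least 8.56-fold fewer assigned counts with T3 (adjusted p = 0.00163). With T4 the log2 fold change was -2.11 (SE 0.769, adjusted p = 0.0408), and the call was lost without the first T4 library (adjusted p = 0.230) or the first DMSO library (adjusted p = 0.272) of day 19. H4C12 had 0 in several libraries in which H4C11 was high, for example both DMSO libraries of day 7.

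H4C11 and H4C12 were also summed, a choice made after their values were seen and with no test. The sum was 1.32 and 1.98 FPKM with T4, 0.82 and 1.32 FPKM with T3 and 2.71 and 2.56 FPKM with DMSO at day 19, and at day 7 it was 5.19 and 4.01 FPKM with T4, 5.81 and 6.98 FPKM with T3 and 5.68 and 5.52 FPKM with DMSO. The libraries of day 19 were all below those of day 7, and the hormone libraries of day 19 were all below the DMSO libraries. The sum therefore had the same direction as H4C11, on few counts, but a smaller difference. With T3 at day 19 it was 0.38 times that with DMSO in CPM and 0.41 times in FPKM.

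**Figure D4:**
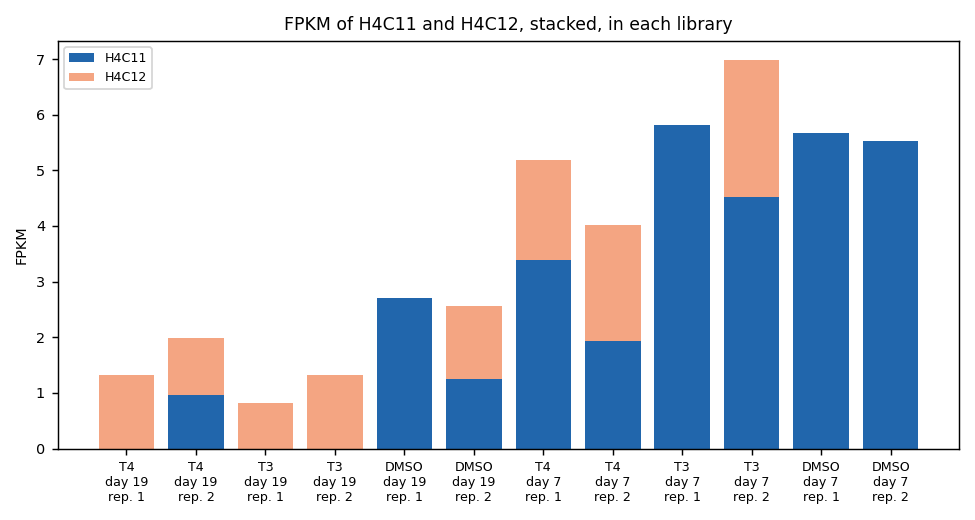
FPKM of H4C11 and H4C12, stacked (y axis, from 0), in each of the 12 libraries (x axis). In some groups the share of the pair given to either gene differs between replicates, as in the DMSO libraries of day 19 with H4C11 at 2.71 and 1.25 FPKM and sums of 2.71 and 2.56 FPKM.

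Genes of DNA replication and division were described beside the histone genes. Of 35 S phase genes (replication licensing, polymerases, nucleotide synthesis), 1 was higher and 33 were lower at day 19 than at day 7 in DMSO, with a median log2 fold change of -1.26, where 37.6% of all genes were called higher and 34.9% lower. MCM2, a subunit of the replicative helicase, had a log2 fold change of -1.95 and MCM7 of -1.89. All 20 mitosis genes were lower, with a median of -2.11, among them PLK1, a mitotic kinase, at -2.19. The median of the 21 tested histone genes was 3.07, or 2.60 with genes at 0 in a group set at their bound, and that of all genes was 0.00. Over all 69 histone genes with no filter the median was 0.32, and in limma on log2(FPKM + 1) that of the 21 was 0.96. Of the 6 histone genes listed as giving polyadenylated transcripts (H1-2, H2AC6, H2BC4, H2BC5, H2BC12 and H2BC21), 6 were higher at day 19 in each treatment, where 37.6% of all genes were called higher in DMSO, 35.2% in T3 and 35.5% in T4. The T4 call of H2BC4 was lost without the first T4 library of day 19 (adjusted p = 0.0529). This list was chosen with results of these data known.

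With hormone at day 19, S phase genes had calls in both directions, where 25.1% of all genes were called higher and 27.3% lower with T3, and 21% higher and 21.9% lower with T4. With T3, 7 S phase genes were higher and 6 lower than with DMSO, with a median of 0.00, and MCM7 (0.94) and CDC6, a licensing factor (0.82), were among the higher. Mitosis genes were 1 higher and 17 lower, with a median of -0.51. With T4, 12 S phase genes were higher and 2 lower, with a median of 0.20, and 2 mitosis genes were higher and 5 lower. At day 7, by contrast, 22 S phase genes were higher with T3 and 17 with T4, and 0 were lower in either, while 14 mitosis genes were higher with T3 and 10 with T4. Of all genes, 9.43% were called higher with T3 and 3.9% with T4 at day 7. Of 14 inhibitors of cell division, 12 were higher and 2 lower at day 19 than at day 7 in DMSO (37.6% and 34.9% of all genes), and CDKN1A, the inhibitor p21, had a log2 fold change of 5.77. CDKN1A was also higher at day 19 with T3 (1.23) and with T4 (1.02) than with DMSO, and 5 of the 14 were higher and 5 lower with each hormone.

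**Figure D5:**
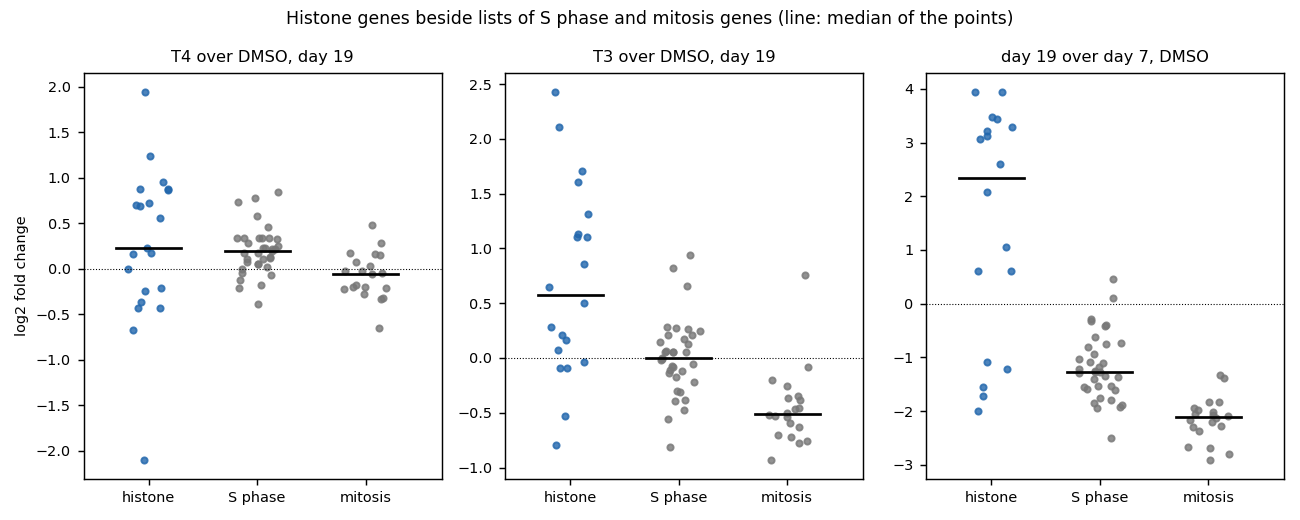
Log2 fold changes (y axis, a scale for each panel) of tested histone genes, 35 S phase genes and 20 mitosis genes for T4 over DMSO and T3 over DMSO at day 19 and for day 19 over day 7 in DMSO. Each point is a gene, lines are medians of the points, and histone genes at 0 in a group are left out, which leaves 21, 20 and 18. In the right panel most histone genes lie above 0 and nearly all S phase and mitosis genes below it.

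The genes that make and handle histones were described in the same way, and their counts stand beside the same shares of all genes (T3 25.1% higher and 27.3% lower, T4 21% and 21.9%, and 37.6% and 34.9% for day 19 against day 7 in DMSO). Of 21 genes of histone mRNA transcription and processing, 10 were higher and 1 lower with T3, and 9 were higher and 0 lower with T4, than with DMSO at day 19. CCNE1, the cyclin E that with CDK2 drives histone gene transcription through NPAT, had 120 ± 3.60 CPM with T4, 181 ± 30.0 CPM with T3 and 46.3 ± 2.32 CPM with DMSO at day 19 (SD, n = 2). Its log2 fold change was 1.37 with T4 and 1.96 with T3, and that of CDK2 was 0.48 and 0.67. SLBP had 67.2 ± 0.715 CPM with T4, 70.8 ± 1.39 CPM with T3 and 60.5 ± 3.67 CPM with DMSO at day 19. Between the days in DMSO, 6 of the 21 were higher and 10 lower.

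Of 20 histone chaperones, 1 was higher and 17 were lower at day 19 than at day 7 in DMSO, where 37.6% of all genes were called higher and 34.9% lower. NASP, a chaperone that holds free H3 and H4 and also H1, had 53.9 ± 1.45 CPM at day 19 and 293 ± 13.7 CPM at day 7 in DMSO (SD, n = 2). With T3, 10 chaperones were higher and 4 lower than with DMSO at day 19, and with T4, 11 were higher and 2 lower, against 25.1% and 27.3% of all genes with T3 and 21% and 21.9% with T4. Of 14 genes of histone variants, which are made outside S phase and whose transcripts carry a tail, 10 were tested. Of these, 2 were higher and 8 lower at day 19 than at day 7 in DMSO. H2AJ, an H2A variant, was higher (log2 fold change 1.59). H3-3B, which encodes H3.3, was lower (-1.06), and was higher with T3 (0.91) and T4 (0.67) than with DMSO at day 19. With T3, 5 variant genes were higher and 2 lower, and with T4, 4 were higher and 0 lower.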

How the data were processed

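Per the labels' protocols, total RNA was extracted with Trizol and made into Illumina libraries. Per the submitters' processing notes, the build was hg38 and the tools HISAT, Bowtie2 and RSEM, with no versions. The deposited table of each library gave, per RefSeq transcript with its Entrez number, an expected count (shared reads divided in proportion, not normalised) and an FPKM value (scaled by the authors to length and depth), listed from an FPKM of 0.01. Both were summed per gene, and 23801 of 23922 genes matched a RefSeq symbol. FPKM gives levels and rounded expected counts the tests. The members and lists, the 6 genes listed as polyadenylated included, were chosen with earlier results of these data known, and 1 gene that the rule takes is not reported here.

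Tests used edgeR 4.0.16 in R 4.3.3: filterByExpr on the 6 groups (minimum count 10), TMM, a two-sided quasi-likelihood fit of 12 libraries with a mean per group and 6 residual degrees of freedom, and Benjamini-Hochberg adjustment over 18101 genes. The fit assumes a common spread, but the chi-square per gene between replicates ranged over 1.58-2.10 on day 7 and 4.96-8.63 on day 19. Named genes were the 6 largest changes each way per comparison among members called, at 2 CPM or more and with replicates apart; H1-2, H2AC6, H2BC12, H2BC21, H4C8 and the most abundant gene of each class; and the 4 smallest p of each other list. H1-4, H2BC4, H2BC8, H2BC9, H3C4, H4C12, H4C14 and SLBP were named after their values were seen. Alternatives were RLE and total count scaling, no filter, DESeq2 1.42.0, limma 3.58.1 on log2(FPKM + 0.1) and log2(FPKM + 1), libraries of the same day alone, a replicate block and each library left out; summing identical copies was added after seeing the data. The tests were checked on simulated data that had the same spread on both days and set changes only for T3 at day 7. That check therefore does not cover the unequal spread of the days. Floors of 3 counts over a group cover counting error only.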

Additional observations from a re-analysis of the deposited data

Results flagged for a closer look

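In 5 cases a hormone effect on a histone gene differed between the days, by the interaction term of the edgeR fit (day 19 minus day 7, adjusted p at most 0.05). For T3 the difference of log2 effects was 1.14 for H1-2, 1.22 for H2AC25, 0.56 for H2BC12 and -6.76 for H4C11, a fitted value that rests on 0 counts of H4C11 with T3 at day 19 and is no bound. For T4 it was 0.95 for H2AC25. Without the first DMSO library of day 7 the T3 difference was 0.88 for H2AC25 (adjusted p = 0.106) and 0.37 for H2BC12 (adjusted p = 0.142), and without the first T3 library of day 7 it was 0.53 for H2BC12 (adjusted p = 0.0646). The effect of T4 on H2AC25 was not called without the first DMSO (adjusted p = 0.319) or second T4 library of day 7 (0.185), nor without the first or second DMSO library (0.0669 and 0.0560) or the first or second T4 library (0.0773 and 0.0594) of day 19. Markers of hepatocytes also differed between hormone and DMSO at day 19, and their part in these differences was not tested.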

How the results depend on the processing

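Of the values of the tested histone genes and of 10 genes named from the other lists under the alternatives, 3031 kept their direction and their side of the threshold, 167 had the other sign and were called in neither, 66 kept the direction but lost the call, 75 gained one, and 3 reversed. These 3 were differences between days with limma on log2(FPKM + 1), namely 1.65 for H2BC26 (main -0.63) and 0.70 for H2BC8 (main -0.16) with T3, and 0.85 for H2BC26 (main -0.99) with T4, none called by edgeR. The number of histone genes called changed as follows, and the cause was not tested. For T3 against DMSO at day 7 (0 genes), limma on log2(FPKM + 0.1) gave 1 (H2BC21) and libraries of the same day alone gave 1 (H4C12). For T4 against DMSO at day 7 (0 genes), libraries of the same day alone gave 2 (H4C11 and H4C12). For T4 against T3 at day 19 (4 genes), total count scaling gave 2, no filter 2, DESeq2 1, limma on log2(FPKM + 0.1) 1 and libraries of the same day alone 1. For the difference of the T3 effect between days (4 genes), limma gave 7 with the pseudocount 0.1 and 10 with the pseudocount 1. For T4 (1 gene) it gave 5 and 6, while RLE and total count scaling each gave 2 and no filter 0 (H2AC25 at an adjusted p of 0.0547). Leaving out each library in turn gave 0 to 1 genes for T3 against DMSO at day 7, 7 to 9 for T3 and 5 to 7 for T4 against DMSO at day 19, 1 to 4 for T4 against T3 at day 19, 11 to 15, 14 to 16 and 11 to 14 for day 19 against day 7 with DMSO, T3 and T4, 2 to 5 for the T3 difference between days and 0 to 1 for the T4 difference. With 1 library left in a group, that library is assumed to vary like the others. Replicate numbers gave no uniform pairing. Deviations of libraries with the same number correlated between -0.0647 and 0.0397 on day 7 and between -0.297 and 0.361 on day 19. What the larger values of day 19 reflect, and a pairing across numbers, were not tested. With the number as a block, the count for T4 against T3 at day 19 was 2, and H4C11 with T4 at day 19 had an adjusted p of 0.0586. Summing identical copies (19 genes tested) left every count within 1.5 times. For the T3 difference between days it gave 5 genes, the sum of H2AC18 and H2AC19 among them. Under total count scaling, the share of higher genes among all calls was 66.1% for T4 against DMSO at day 19 (48.9% under TMM), 62.5% for T4 against T3 at day 19 (47.2%), 47.9% for T3 against DMSO at day 7 (59%), 33.1%, 35.4% and 37.3% for day 19 against day 7 with DMSO, T3 and T4 (51.9%, 48.1% and 49.4%), 57.9% for the T3 difference between days (45%) and 68.2% for T4 (44.8%). Depth limits H1-4, H2AC8, H2AC11, H2AC20, H2BC4, H2BC8, H2BC9, H2BC26, H3C4, H4C11, H4C12, H4C14 and H4C15, which had fewer than 50 counts in most libraries. H1-2, H2AC18, H2AC19, H2BC5 and H2BC21 also had fewer than 50 counts in every library of day 7. Their differences between the days rest on those counts.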
